A study of Rattus norvegicus with 12 samples.

Results

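The extracellular matrix genes and the matrix proteases of the count table were taken by name. They were the collagen chains, the laminin chains, the ADAMTS and ADAMTS-like family, the matrix metalloproteinases (MMPs), their tissue inhibitors (TIMPs) and a short set of matrix glycoproteins. Of 28727 named genes, 115 matched this name rule, and 57 of these held at least 10 raw counts in at least 3 of the 12 libraries; these 57 are called the members here. RNA was sequenced from INS-1 832/13 cells, a clonal rat insulinoma line used as a model of the pancreatic β-cell. The cells carried an adenovirus for GFP or for ChREBPβ, the truncated isoform of the carbohydrate response element binding protein, and were harvested after 48 h at a glucose concentration of 2 or 11 mM. Each of the 4 groups (GFP 2 mM, GFP 11 mM, ChREBPβ 2 mM and ChREBPβ 11 mM) held 3 libraries, named a, b and c, and all groups were transduced. The ChREBPβ virus carries the mouse sequence at an enforced level in 1 rat line, so the comparison is one of overexpression.

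The extracellular matrix is the network of secreted proteins that surrounds cells. In an islet most of it is a basement membrane of laminins, collagen IV and nidogens made largely by the endothelium, which β-cells contact through integrins, while fibrillar collagens come mainly from fibroblasts and stellate cells. ADAMTS proteases and MMPs cut matrix proteins, some at the cell surface, and TIMPs hold MMPs in check.

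The 57 members were 17 of 24 ADAMTS genes, 5 of 22 MMPs, 2 of 4 TIMPs, 11 of 20 basement membrane genes, 11 of 19 fibrillar and fibril-associated collagens, 6 of 8 glycoproteins and 5 of 18 other collagens. The other 58 matching genes lay below the minimum, with no count above 19 in any library. Of these, 15 had 0 counts in every library, and 31, which include those 15, had at most 3. Of the genes below the minimum, Col3a1 and Sparc had at most 1 count in a library, Timp3 at most 1, Nid1 at most 3, and Col1a1, a chain of collagen I, at most 5. Hspg2 was not analysed here.

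Library totals ranged from 25754488 counts in a GFP 2 mM library to 60531215 in a ChREBPβ 11 mM library, and were lower with GFP at 2 mM (25754488 to 32938546) than with ChREBPβ at 11 mM (57088794 to 60531215). Counts were scaled by the TMM method to CPM, counts in each 1000000 of the scaled library. A gene was called when its edgeR adjusted p was under 0.05 over the 14669 genes tested and its change was at least 1.2-fold. The study describes its averages as those of independent experiments, while the labels do not say which libraries came from separate cultures, so the p-values measure the spread between these libraries, part of which may be technical. All 10 β-cell markers were detected in every library, 9 of them fell with ChREBPβ and Slc2a2, the glucose transporter, rose, and their summed level was 23931 to 26825 CPM (GFP 2 mM), 19422 to 21256 CPM (GFP 11 mM), 12841 to 13229 CPM (ChREBPβ 2 mM) and 12118 to 12675 CPM (ChREBPβ 11 mM). Of 11 fibroblast and stellate cell markers in the table, 3 to 6 were at 0 in a library, with Dcn and Lum at 0 throughout. The summed level of that list was 189.7 to 196.7 CPM (GFP 2 mM), 153.6 to 158.6 CPM (GFP 11 mM), 87.6 to 90.6 CPM (ChREBPβ 2 mM) and 86.0 to 88.2 CPM (ChREBPβ 11 mM), nearly all of it Thy1, while Pdgfrb went from at most 0.0292 CPM in any GFP library to between 0.41 and 1.01 CPM in the ChREBPβ libraries. Of 4 tested markers of that list, 1 was called higher and 2 lower at 2 mM, and 2 higher and 1 lower at 11 mM. The endothelial markers summed to 2.76 to 4.02 CPM (GFP 2 mM), 3.16 to 3.62 CPM (GFP 11 mM), 2.30 to 2.36 CPM (ChREBPβ 2 mM) and 2.03 to 2.74 CPM (ChREBPβ 11 mM), with 2 of 3 tested markers lower at 2 mM and 1 at 11 mM. The macrophage markers summed to 0.551 to 0.609, 0.642 to 0.973, 0.806 to 1.397 and 0.982 to 1.317 CPM in the same order, with Ptprc, the pan-leukocyte marker, at 0 throughout. Of 2 tested macrophage markers, Cd68 was called higher at 2 mM (1.04, SE 0.38, adjusted p = 0.0243). The other tested marker did not rise at 2 mM and was not called, and at 11 mM neither was called. The part of these shifts in the results below was not tested, and a smaller number of cells of a kind and less RNA per cell cannot be told apart.

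ChREBPβ changed 32 of the 57 members at 2 mM glucose, 14 higher and 18 lower, which was 56.1% of them against 44.1% of all genes tested. At 11 mM it also changed 32, again 14 higher and 18 lower, or 56.1% against 33.4% of all genes. The share of genes called higher was 21.0% at 2 mM and 14.3% at 11 mM, and the share called lower was 23.2% and 19.1%. The median log2 fold change of the members was -0.19 at 2 mM and -0.24 at 11 mM, with -0.02 for all genes tested at each level. The ChREBPβ and GFP libraries did not overlap for 40 members at 2 mM, where 63.3% of all genes did not, and for 38 at 11 mM, where 56.1% did not. Library totals as the only scaling moved the median of all genes to -0.12 at 2 mM and -0.10 at 11 mM, and then 14 members were called higher and 24 lower at 2 mM, and 14 and 21 at 11 mM.

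The comparisons at 2 and 11 mM share no library. Called higher at both levels were 11 members (19.3%, with 12% of all genes): the glycoproteins Tnxb and Tnr, the basement membrane genes Lamc3, Lamb3 and Nid2, the collagens Col5a3, Col16a1 and Col25a1, and the proteases or protease-like genes Adamts8, Adamtsl2 and Mmp17. Called lower at both were 14 (24.6%, with 16.2% of all genes): Fn1, Agrn, Col4a5, Col6a2, Col6a6, Col8a2, Col18a1, Col24a1, Col27a1, Adamts3, Adamts5, Adamts9, Mmp15 and Timp2. In this list Col8a2, a chain of a short network collagen, fell by 1.24 on the log2 scale at 2 mM and by 1.12 at 11 mM, and lost the second call without ChREBPβ 11 mM a (-0.85) or GFP 11 mM b (-0.82). At 2 mM alone 7 members were called, with log2 fold changes of -0.73 for Adamts15, -0.47 for Adamts17, -0.59 for Adamts20, 1.25 for Col11a2 and 0.42 for Mmp16, and with Adamts16 and Adamtsl4 given further on. At 11 mM alone 7 were called, with 0.48 for Adamts7, -0.33 for Adamts14, -1.49 for Col9a2 and 1.05 for Lamb2, and with Col4a4, Fbn1 and Postn given further on. Adamts20 lost its call without ChREBPβ 2 mM b (-0.57) or GFP 2 mM c (-0.52), Adamts14 without ChREBPβ 11 mM c (-0.31) or GFP 11 mM b (-0.29), Adamts7 without ChREBPβ 11 mM c (0.45) or GFP 11 mM a (0.46) or c (0.45), and Lamb2 without GFP 11 mM a (0.96) or b (0.90). A call at a single level does not show that the effect differed between the levels, which is the separate test given with the interaction. The shares of all genes called at a single level or at neither were not counted, so these counts of members show no excess or lack. The 18 members called at neither level were Adamts6, Adamts10, Adamts13, Adamtsl1, Adamtsl5, Col2a1, Col4a2, Col9a1, Col12a1, Col20a1, Col22a1, Fbn2, Lama5, Lamb1, Lamc1, Mmp2, Mmp24 and Timp1.

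Changes of 2-fold or more were 9 higher and 8 lower at 2 mM (5.10% and 4.83% of all genes) and 9 higher and 4 lower at 11 mM (3.89% and 2.87%).

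**Figure D1:**
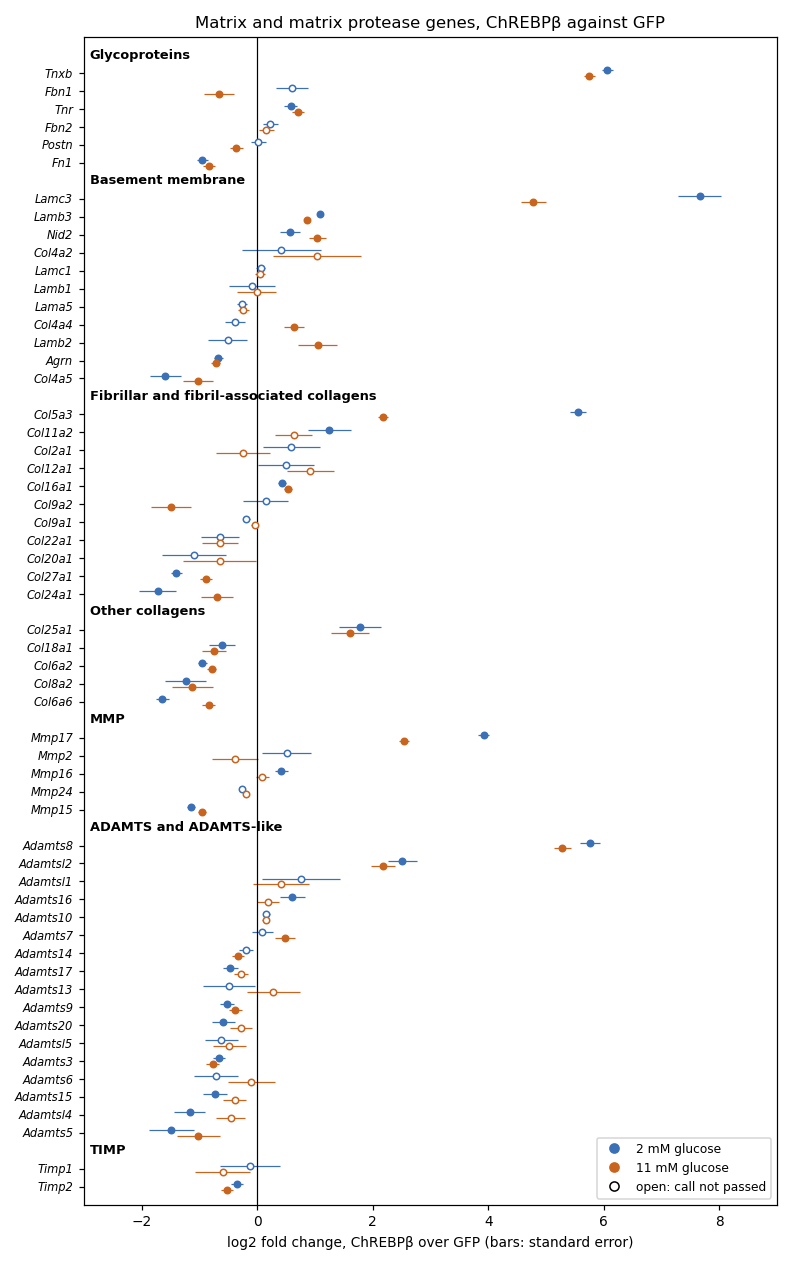
Log2 fold change of each of the 57 members with ChREBPβ over GFP, on the x axis, at 2 mM (blue) and 11 mM (orange) glucose, by role; bars are the standard error of the edgeR fit from 3 libraries a group, and open points did not pass the call. Tnxb, Adamts8 and Lamc3 lie at 4.78 or above at both glucose levels, Col5a3 and Mmp17 lie lower at 11 mM (2.18 and 2.54) than at 2 mM (5.56 and 3.92), and no member lies below a log2 value of -1.72.

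Fn1 encodes fibronectin, the glycoprotein that cells assemble into fibrils through integrins, and it held most of the counts of the members with GFP. Its level at 2 mM was 1048, 848 and 1216 CPM under GFP and 529, 559 and 528 CPM under ChREBPβ. At 11 mM it was 980, 1265 and 998 CPM under GFP and 677, 598 and 543 CPM under ChREBPβ. Every ChREBPβ library lay below every GFP library, and the 2 glucose levels overlapped within each virus. The log2 fold change with ChREBPβ was -0.95 (SE 0.10, edgeR adjusted p = 2.03e-07) at 2 mM and -0.83 (SE 0.10, adjusted p = 1.55e-06) at 11 mM. Fn1 made up 60.7% ± 3.77 (SD, n = 3) of the members' summed CPM under GFP at 2 mM and 39.9% ± 0.755 with ChREBPβ. The sum itself was 1702 ± 199 CPM under GFP and 1350 ± 23.5 CPM under ChREBPβ at 2 mM, and 1727 ± 170 and 1450 ± 85.5 CPM at 11 mM. Without Fn1 the order turned, with 665 ± 15 CPM for GFP and 811 ± 11.2 CPM for ChREBPβ at 2 mM, and 646 ± 11.3 and 844 ± 20.5 CPM at 11 mM. These are sums over transcripts of unequal length, so they describe reads and not molecules.

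Tnxb, which encodes tenascin-X, a large glycoprotein that binds collagen fibrils, showed the reverse pattern. In GFP cells it lay at 1.10, 0.904 and 1.35 CPM at 2 mM and at 1.64, 1.5 and 1.82 CPM at 11 mM. With ChREBPβ it reached 71.1, 77.5 and 73.8 CPM at 2 mM and 95.4, 90.2 and 83.4 CPM at 11 mM. The virus groups were far apart and the glucose levels did not overlap within either virus. The log2 fold change with ChREBPβ was 6.06 (SE 0.10, adjusted p = 6.3e-20) at 2 mM, or 66.6-fold, and 5.75 (SE 0.09, adjusted p = 2.15e-20) at 11 mM. Tnxb also rose with glucose, by a log2 value of 0.58 (SE 0.17, adjusted p = 0.0125) with GFP and 0.27 (SE 0.06, adjusted p = 0.00496) with ChREBPβ. Those glucose calls were lost without GFP 11 mM c (0.50) or GFP 2 mM b (0.43) in the first case, and without ChREBPβ 11 mM a (0.23) or ChREBPβ 2 mM a (0.25) in the second. The reference lists a pseudogene, Tnxa-ps1, with sequence like that of Tnxb, so reads may be divided between them and the level of Tnxb is uncertain to that extent. Tnxb itself had no match by name in the reference, so genes overlapping it were not looked for.

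Tnr, tenascin-R, known best from the matrix of the nervous system, rose less. It was at 28.0, 20.2 and 23.0 CPM under GFP and 35.2, 36.9 and 34.0 CPM under ChREBPβ at 2 mM, and at 20.4, 27.1 and 25.4 against 44.8, 37.6 and 36.4 CPM at 11 mM. The groups did not overlap at either level, and the log2 fold changes were 0.58 (SE 0.11, adjusted p = 0.000113) and 0.71 (SE 0.10, adjusted p = 1.08e-05). Fbn1, which encodes fibrillin-1 of the elastic microfibrils, was low, with 0.625 to 0.866 CPM (GFP) and 0.806 to 1.497 CPM (ChREBPβ) at 2 mM and 1.14 to 1.15 and 0.597 to 0.823 CPM at 11 mM. Its log2 fold change of -0.66 at 11 mM (SE 0.26, adjusted p = 0.0409) did not hold its call without ChREBPβ 11 mM a (-0.54) or b (-0.70), or without GFP 11 mM a, b or c (-0.66, -0.66 and -0.67). Postn, periostin, was called lower at 11 mM (-0.36) but not without ChREBPβ 11 mM b (-0.32), and Fbn2 was called at neither level.

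Among the 11 basement membrane members, 3 rose and 2 fell at 2 mM, and 5 rose and 2 fell at 11 mM. These calls were 45.5% of them at 2 mM and 63.6% at 11 mM, against 44.1% and 33.4% of all genes tested. Lamc3 encodes the laminin γ3 chain, a subunit of the less common laminins. Its raw counts with GFP at 2 mM were 1, 1 and 0, at or under the floor of 3 counts. In CPM it stood at 0.177, 0.321 and 0.190 with GFP at 11 mM, at 4.94, 5.38 and 4.42 with ChREBPβ at 2 mM and at 5.65, 7.21 and 5.83 with ChREBPβ at 11 mM. No group overlapped another between viruses. Against the floor of 3 counts per library, which covers counting error only, Lamc3 was at least 50.2-fold higher with ChREBPβ at 2 mM (adjusted p = 8.47e-13 for the fitted change). At 11 mM the log2 fold change was 4.78 (SE 0.22, adjusted p = 5.44e-13), or 27.5-fold.

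Lamb3, the laminin β3 chain, had the most reads of the basement membrane members, with no correction for length. It was at 66.9, 66.1 and 68.0 CPM under GFP and 135.4, 144.8 and 143.4 CPM under ChREBPβ at 2 mM. The corresponding values at 11 mM were 81.9, 79.8 and 81.0 CPM and 143.6, 148.8 and 150.7 CPM. The libraries of a group lay close together and the viruses were fully apart, with log2 fold changes of 1.08 (SE 0.04, adjusted p = 2.11e-14) and 0.87 (SE 0.04, adjusted p = 7.08e-13). Nid2, nidogen-2, which links laminin to collagen IV, was at 2.28, 2.71 and 1.57 CPM under GFP and 3.47, 3.35 and 3.03 CPM under ChREBPβ at 2 mM. It went to 2.43, 2.97 and 2.92 CPM under GFP and 5.65, 5.93 and 5.52 CPM under ChREBPβ at 11 mM. Its log2 fold change was 0.57 (SE 0.17, adjusted p = 0.00639) at 2 mM and 1.04 (SE 0.15, adjusted p = 6.21e-06) at 11 mM, and it was 1 of the 4 members that changed with glucose under ChREBPβ (0.80, SE 0.14, adjusted p = 0.00121).

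Of the collagen IV chains, Col4a5 and Col4a4 moved in different directions at 11 mM. Col4a1, Col4a3 and Col4a6 lay below the count minimum, and Col4a2, with at most 21 counts in a library, was called at neither level. Col4a5 fell, from 1.87, 2.65 and 1.57 CPM under GFP to 0.609, 0.767 and 0.627 CPM under ChREBPβ at 2 mM (log2 fold change -1.59, SE 0.27, adjusted p = 3.58e-05). At 11 mM it was at 1.84, 1.26 and 1.21 CPM under GFP and 0.785, 0.561 and 0.768 CPM under ChREBPβ (-1.03, SE 0.26, adjusted p = 0.00248). The viruses did not overlap at either level. Col4a4 was at 2.79, 2.51 and 2.85 CPM under GFP and 2.08, 2.14 and 2.04 CPM under ChREBPβ at 2 mM, a log2 difference of -0.38 that did not pass the test (SE 0.17, adjusted p = 0.0713). At 11 mM Col4a4 was at 2.21, 1.98 and 1.44 CPM under GFP and 2.76, 3.33 and 2.63 CPM under ChREBPβ, and was called higher (0.64, SE 0.17, adjusted p = 0.00345). Agrn, agrin, a heparan sulfate proteoglycan of basement membranes, fell from between 23.3 and 29.3 CPM to between 16.2 and 16.7 CPM at 2 mM (-0.67, SE 0.08, adjusted p = 7.58e-07) and from 23.5 to 25.5 CPM to 13.3 to 15.95 CPM at 11 mM (-0.72, SE 0.08, adjusted p = 2.64e-07). Lama5, the laminin α5 chain, was at 68.1, 51.6 and 68.6 CPM under GFP and 50.03, 51.6 and 54.9 CPM under ChREBPβ at 2 mM, with a log2 difference of -0.26 (SE 0.09, adjusted p = 0.0171) that was under the 1.2-fold minimum. The groups overlapped in GFP 2 mM b, and the difference was called without that library (-0.39), without ChREBPβ 2 mM c (-0.30) and with library totals as the scaling (-0.36). Lamc1, the γ1 chain found in most laminins, was at 18.8 to 23.7 CPM under GFP and 21.3 to 22.4 CPM under ChREBPβ at 2 mM and was not called.

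Of the 11 fibrillar and fibril-associated collagens, 3 rose and 2 fell at 2 mM, and 2 rose and 3 fell at 11 mM. That was 45.5% of them at each level, against 44.1% of all genes tested at 2 mM and 33.4% at 11 mM. Col5a3 encodes the α3 chain of collagen V, a collagen that sits within collagen I fibrils and sets their diameter. It was at 0.441, 0.437 and 0.321 CPM under GFP at 2 mM and at 5.58, 4.93 and 6.28 CPM under GFP at 11 mM. ChREBPβ brought it to 18.98, 19.5 and 18.5 CPM at 2 mM and to 25.1, 25.4 and 25.8 CPM at 11 mM. The 4 groups were fully separate and in the order GFP 2 mM, GFP 11 mM, ChREBPβ 2 mM, ChREBPβ 11 mM. The log2 fold change with ChREBPβ was 5.56 (SE 0.14, adjusted p = 1.65e-17), or 47.2-fold, at 2 mM and 2.18 (SE 0.08, adjusted p = 1.41e-14), or 4.52-fold, at 11 mM. Col16a1, a fibril-associated collagen, rose from 15.1, 14.4 and 16.8 CPM to 21.5, 20.02 and 21.1 CPM at 2 mM (0.43, SE 0.07, adjusted p = 2.55e-05) and from 11.8, 12.4 and 12.5 CPM to 16.9, 17.8 and 18.3 CPM at 11 mM (0.53, SE 0.07, adjusted p = 2.4e-06).

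Col27a1 and Col24a1 encode the shorter fibrillar collagens of the vertebrate family. Col27a1 was at 15.8, 15.4 and 17.7 CPM under GFP and 6.02, 6.03 and 6.39 CPM under ChREBPβ at 2 mM. At 11 mM the values were 8.36, 8.68 and 6.94 CPM under GFP and 4.30, 4.02 and 4.55 CPM under ChREBPβ. As with Col5a3 the 4 groups did not overlap, here in the falling direction, with log2 fold changes of -1.40 (SE 0.10, adjusted p = 2.17e-10) and -0.89 (SE 0.10, adjusted p = 4.14e-07). Col24a1 was low, at 0.882, 1.40 and 1.35 CPM under GFP and 0.287, 0.321 and 0.466 CPM under ChREBPβ at 2 mM (-1.72, SE 0.32, adjusted p = 0.000127). Its call at 11 mM (-0.69, SE 0.28, adjusted p = 0.0476) was fragile. It was lost without ChREBPβ 11 mM b (-0.57) or c (-0.56), without GFP 11 mM a (-0.59), b (-0.70) or c (-0.78), and without any of ChREBPβ 2 mM a, b and c or GFP 2 mM b and c (-0.69 in each case). Fitting the replicate letters as a block also ended it (-0.70, adjusted p = 0.0611), as did DESeq2 (-0.68) and another scaling, by RLE factors (-0.67). Thinning each library to the smallest total ended it too, with a smaller change (-0.32, edgeR adjusted p = 0.421). Col9a1, a cartilage collagen of the fibril-associated kind, was at 33.6 to 34.2 CPM under GFP and 29.3 to 30.1 CPM under ChREBPβ at 2 mM, a non-overlapping difference under 1.2-fold, and overlapped at 11 mM.

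All 5 other collagens were called at both levels, 4 lower and 1 higher. Of all genes tested, 16.2% were called lower and 12% higher at both levels. The share called in either direction was 44.1% at 2 mM and 33.4% at 11 mM. With only 5 members, the count does not show a trait of this class. Col6a6 and Col6a2 encode chains of collagen VI, which forms beaded filaments near the cell surface. Col6a6 was at 24.3, 19.2 and 25.3 CPM under GFP and 7.41, 7.58 and 7.06 CPM under ChREBPβ at 2 mM, and at 12.01, 14.1 and 11.4 CPM and 7.86, 6.75 and 6.20 CPM at 11 mM. The viruses were apart at both levels, and the glucose levels were apart with GFP but overlapped with ChREBPβ. The log2 fold changes were -1.64 (SE 0.11, adjusted p = 1.34e-10) and -0.84 (SE 0.11, adjusted p = 2.66e-06). Col6a6 lies within the span of Rpl29 on the opposite strand in the reference. Whole gene spans were compared and not exons, and the sources used here do not say whether strand was counted. Some reads may therefore be shared by the pair, which was not tested. Col6a2 was at 14.4, 16.9 and 16.7 CPM under GFP and 8.34, 8.04 and 8.58 CPM under ChREBPβ at 2 mM (-0.95, SE 0.08, adjusted p = 5.62e-09), and at 11.9, 13.2 and 12.5 CPM and 7.18, 7.51 and 6.97 CPM at 11 mM (-0.79, SE 0.08, adjusted p = 8.58e-08). Col18a1, whose C-terminal fragment is endostatin, had means of 2.11 ± 0.173 CPM under GFP and 1.34 ± 0.308 CPM under ChREBPβ at 2 mM (-0.61, SE 0.22, adjusted p = 0.0225), a call lost without ChREBPβ 2 mM a (-0.48) or GFP 2 mM c (-0.54). At 11 mM Col18a1 fell by 0.75 on the log2 scale (SE 0.21, adjusted p = 0.0056). Col25a1, a transmembrane collagen, was the one that rose, from 0.257 to 0.385 CPM to 0.716 to 1.504 CPM at 2 mM (1.78, SE 0.36, adjusted p = 0.00028) and from 0.338 to 0.402 CPM to 0.789 to 1.46 CPM at 11 mM (1.61, SE 0.33, adjusted p = 0.000382).

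The 17 ADAMTS and ADAMTS-like members had 3 called higher and 7 lower at 2 mM (21.0% and 23.2% of all genes) and 3 higher and 4 lower at 11 mM (14.3% and 19.1% of all genes). Adamts8, a secreted metalloprotease of the group that cuts proteoglycans, had the largest rise. In GFP cells it was at 0.368, 0.350 and 0.353 CPM at 2 mM and 0.465, 0.348 and 0.867 CPM at 11 mM. With ChREBPβ it was at 17.7, 20.5 and 19.98 CPM at 2 mM and 21.0, 24.3 and 22.2 CPM at 11 mM. The viruses were far apart, and the log2 fold changes were 5.76 (SE 0.18, adjusted p = 9.96e-16), or 54.3-fold, and 5.28 (SE 0.15, adjusted p = 4.83e-16), or 38.8-fold. Adamtsl2 encodes a relative without a protease domain that binds fibrillin. It was at 0.441, 0.350 and 0.385 CPM under GFP and 2.83, 2.09 and 1.92 CPM under ChREBPβ at 2 mM, and at 0.553, 0.562 and 0.571 CPM and 2.23, 2.84 and 2.60 CPM at 11 mM. Again the viruses did not overlap, with log2 fold changes of 2.51 (SE 0.25, adjusted p = 4.72e-08) and 2.18 (SE 0.21, adjusted p = 4.83e-08).

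Adamts16 was called higher at 2 mM, with 1.29, 1.46 and 0.962 CPM under GFP and 1.86, 2.12 and 1.67 CPM under ChREBPβ (0.61, SE 0.21, adjusted p = 0.0186). That call was lost without ChREBPβ 2 mM b (0.50) or GFP 2 mM c (0.45), and at 11 mM the groups overlapped. Adamts3, a protease that removes the N-terminal propeptide of procollagen, fell from 8.75, 8.98 and 9.17 CPM to 4.94, 5.24 and 6.70 CPM at 2 mM (-0.66, SE 0.11, adjusted p = 5.36e-05). At 11 mM Adamts3 fell from 8.63, 8.57 and 7.91 CPM to 5.42, 4.58 and 4.66 CPM (-0.77, SE 0.11, adjusted p = 7.7e-06). Adamtsl4, another fibrillin-binding relative, went from 1.84, 1.66 and 1.99 CPM to 0.645, 0.570 and 1.16 CPM at 2 mM (-1.17, SE 0.27, adjusted p = 0.000926), and at 11 mM was at 1.33 to 1.78 CPM against 0.947 to 1.41 CPM without passing the test. Adamts5, an aggrecan-cutting protease, was under 1 CPM and fell by 1.49 on the log2 scale at 2 mM (SE 0.39, adjusted p = 0.00259). Its fall at 11 mM (-1.02, SE 0.37, adjusted p = 0.0265) lost the call without ChREBPβ 11 mM b (-1.03) or c (-0.92) or GFP 11 mM b (-0.91) or c (-0.95). Adamts9, which cuts aggrecan and versican, fell by 0.52 (SE 0.12, adjusted p = 0.00103) and 0.38 (SE 0.11, adjusted p = 0.00778). Adamts10, the member of this family with the most reads, was at 29.3 to 32.8 CPM under GFP and 33.1 to 35.4 CPM under ChREBPβ at 2 mM, a difference of 0.16 (SE 0.06, adjusted p = 0.0363) that was under the 1.2-fold minimum.

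**Figure D2:**
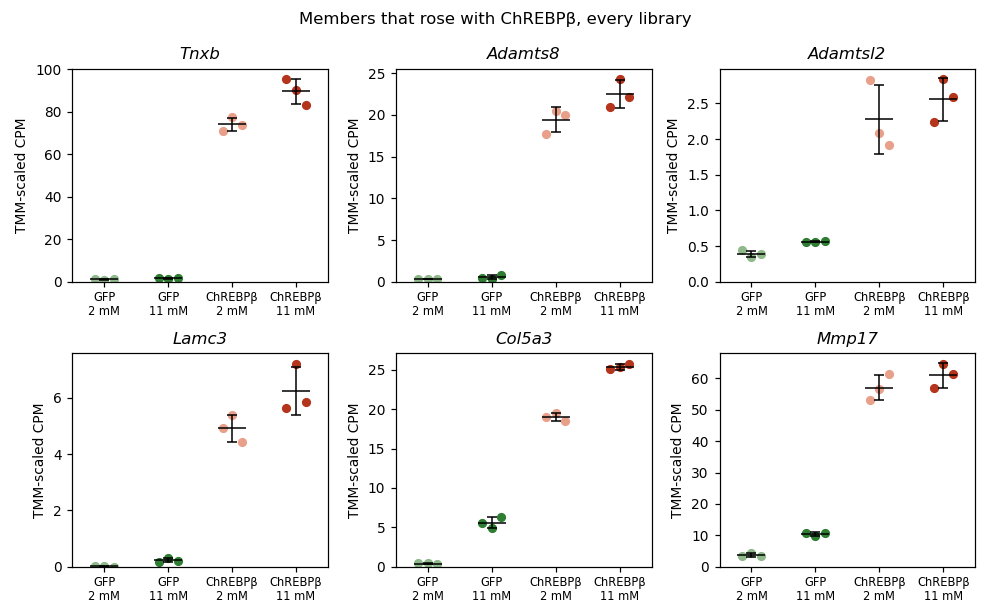
TMM-scaled CPM of 6 members that rose, one panel each with its own linear y axis from 0; each point is a library, the long bar the mean and the whiskers the SD of 3 libraries. GFP libraries of Tnxb stay at or below 1.82 CPM while the ChREBPβ libraries lie at 71.1 CPM or above, and Col5a3 and Mmp17 show an intermediate GFP 11 mM group.

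The MMP members were 4 membrane-type proteases, anchored at the cell surface, and Mmp2, a secreted gelatinase. Mmp17 encodes MT4-MMP, which is held by a lipid anchor. It was at 3.42, 4.52 and 3.30 CPM under GFP at 2 mM and 10.7, 9.86 and 10.8 CPM under GFP at 11 mM. With ChREBPβ it was at 53.2, 56.8 and 61.3 CPM at 2 mM and 56.9, 64.7 and 61.3 CPM at 11 mM. The 2 GFP groups were apart and the 2 ChREBPβ groups overlapped. The log2 fold changes with ChREBPβ were 3.92 (SE 0.09, adjusted p = 1.29e-17), or 15.1-fold, and 2.54 (SE 0.08, adjusted p = 9.76e-16), or 5.82-fold. Mmp15, MT2-MMP, with a transmembrane anchor, moved the other way, from 36.6, 36.6 and 37.3 CPM to 18.3, 15.4 and 16.4 CPM at 2 mM (-1.15, SE 0.07, adjusted p = 3.73e-11). At 11 mM it went from 32.6, 32.9 and 29.8 CPM to 17.8, 15.1 and 16.2 CPM (-0.95, SE 0.07, adjusted p = 6.08e-10), and the viruses did not overlap at either level. Mmp24, MT5-MMP, with the most reads of the MMPs, was at 199 to 205.5 CPM under GFP and 168 to 172 CPM under ChREBPβ at 2 mM, and at 195 to 199 and 168 to 177 CPM at 11 mM. These groups did not overlap, but the log2 differences of -0.26 (SE 0.04, adjusted p = 7.43e-06) and -0.20 (SE 0.04, adjusted p = 0.000164) were under the 1.2-fold minimum. Without ChREBPβ 2 mM a (-0.26) or GFP 2 mM a (-0.27), and with library totals as the scaling (-0.36 and -0.28), they passed it.

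Timp2 binds MMPs and also takes part in activating the MMP2 proenzyme. It was at 10.47, 9.27 and 7.98 CPM under GFP and 6.84, 6.95 and 7.75 CPM under ChREBPβ at 2 mM, and at 9.54, 9.35 and 8.65 CPM and 6.23, 6.86 and 6.11 CPM at 11 mM. The groups were apart at both levels, if narrowly at 2 mM between GFP c and ChREBPβ c. The log2 fold changes were -0.35 (SE 0.10, adjusted p = 0.00641) and -0.52 (SE 0.10, adjusted p = 0.000225), and the first was not called without GFP 2 mM a (-0.26, adjusted p = 0.0501). Cep295nl, a counted gene, lies inside Timp2 on the same strand in the reference, so reads may be divided between them. Timp1 was at 0.123 to 0.758 CPM over all 12 libraries and was called in no comparison. Timp1 lies within the span of Syn1 on the opposite strand in the reference. At this low level some of its reads may come from Syn1, which was not tested. Timp3 and Timp4 were below the count minimum.

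**Figure D3:**
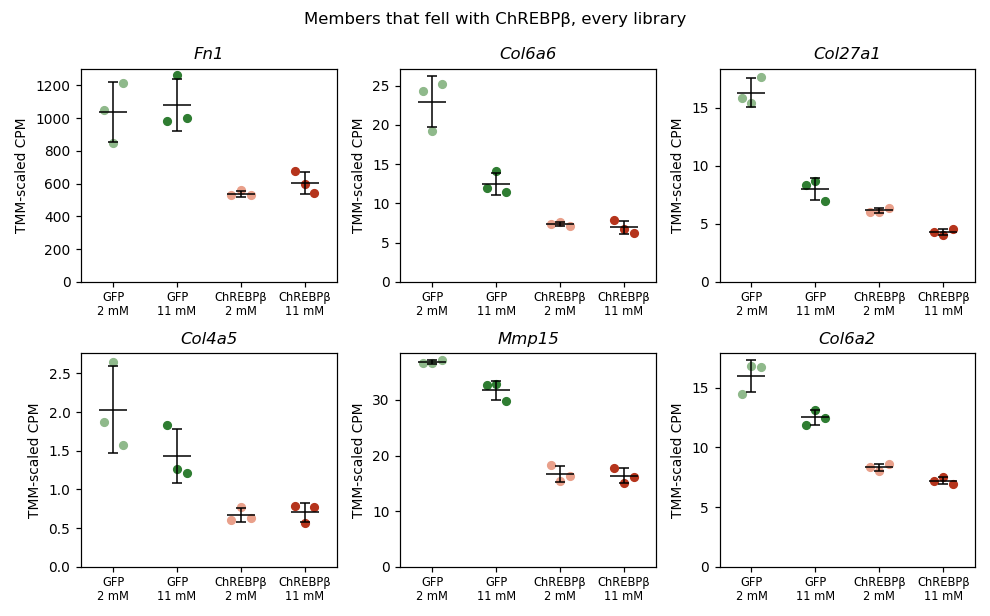
TMM-scaled CPM of 6 members that fell, one panel each with its own linear y axis from 0; each point is a library, the long bar the mean and the whiskers the SD of 3 libraries. The ChREBPβ libraries lie below the GFP libraries in every panel at both glucose levels, and for Col6a6 and Col27a1 the GFP 11 mM libraries lie between GFP 2 mM and ChREBPβ.

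Glucose alone was compared within each virus. With GFP, 15 members changed from 2 to 11 mM, 8 higher and 7 lower, which was 26.3% of them against 20.2% of all genes tested (10.2% called higher and 10.0% lower). Groups that did not overlap were 22 of the 57, where 42.0% of all genes did not overlap. With ChREBPβ, 4 members changed, 3 higher and 1 lower, or 7.02% against 3.87% of all genes (0.988% higher and 2.88% lower), and 18 did not overlap, where 28.9% of all genes did not. Changes of 2-fold or more with GFP were found in Col5a3 (log2 fold change 3.81, SE 0.16, adjusted p = 1.72e-12), Lamc3 (at least 2.34-fold higher against the floor of 3 counts, adjusted p = 0.00194 for the fitted change), Mmp17 (1.47, SE 0.11, adjusted p = 5.07e-09), Lamb2 (-1.09, SE 0.36, adjusted p = 0.0251), Col9a2 (1.06, SE 0.36, adjusted p = 0.0286) and Col27a1 (-1.03, SE 0.10, adjusted p = 1.06e-07). Lamb2, the laminin β2 chain, lost this call without GFP 11 mM a (-0.99) or b (-0.93) or GFP 2 mM a (-1.07) or c (-0.99), and Col9a2 without GFP 11 mM a (1.09) or b (0.85) or GFP 2 mM a (1.00) or c (0.91). Postn rose by 0.57 (SE 0.12, adjusted p = 0.00112) and Mmp16 by 0.45 (SE 0.12, adjusted p = 0.00572). Col6a6 (-0.88, SE 0.10, adjusted p = 2.55e-06), Col6a2 (-0.36, SE 0.08, adjusted p = 0.00138) and Col16a1 (-0.34, SE 0.07, adjusted p = 0.00123) fell as well, and Lamb3 rose by 0.27 (SE 0.04, adjusted p = 4.65e-05), which was under the 1.2-fold minimum with library totals as the scaling (0.24). Lama5 fell by 0.30 (SE 0.09, adjusted p = 0.0126) although the groups overlapped, and lost the call without GFP 2 mM a (-0.24) or c (-0.23).

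The glucose comparison with GFP shares its libraries with the ChREBPβ comparisons, so the values are given side by side and their likeness is not a result. The 3 members with the highest rise under glucose alone, Col5a3, Lamc3 and Mmp17, were also among those that rose with ChREBPβ at both levels. Col27a1, Col6a6 and Col6a2 fell under both. Col16a1 fell with glucose and rose with ChREBPβ. Adamts8 and Adamtsl2 rose with ChREBPβ, while their log2 differences with glucose in GFP cells were 0.69 (SE 0.34, adjusted p = 0.129) and 0.53 (SE 0.30, adjusted p = 0.196), neither past the test. Fn1 differed by 0.06 (SE 0.10, adjusted p = 0.705) with glucose in GFP cells.

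A difference in the effect of the virus between the glucose levels was tested as an interaction, the log2 fold change at 11 mM minus that at 2 mM. It was called for 7 members, 3 positive and 4 negative, which was 12.3% of the 57 against 6.31% of all genes tested (1.56% positive and 4.74% negative). Col5a3 (-3.39, SE 0.19, adjusted p = 2.93e-10) and Mmp17 (-1.38, SE 0.13, adjusted p = 5.34e-07) had the firmest differences, with a smaller rise at 11 mM, where the GFP level was already higher. For Lamc3 the value was -2.87 (SE 0.77, adjusted p = 0.0249); it rests on a GFP 2 mM group at the floor, and the call was lost without GFP 11 mM b (-2.60) or GFP 2 mM b (-3.17) or c (-2.34). Col6a6 had a smaller fall at 11 mM (0.80, SE 0.16, adjusted p = 0.00282). Col27a1 did too (0.51, SE 0.14, adjusted p = 0.029), but lost the call without ChREBPβ 11 mM a (0.51) or c (0.47), ChREBPβ 2 mM a (0.50) or b (0.49), GFP 11 mM c (0.41) or GFP 2 mM c (0.45). Col4a4 had a value of 1.01 (SE 0.24, adjusted p = 0.0122). From 2 to 11 mM its GFP libraries fell (-0.54, SE 0.18, adjusted p = 0.025), while its ChREBPβ libraries differed by 0.48 without overlap or a call (SE 0.16, adjusted p = 0.0843). The glucose call with GFP was lost without GFP 11 mM c (-0.37) or GFP 2 mM a (-0.51) or c (-0.50). Fbn1 had a value of -1.26 (SE 0.38, adjusted p = 0.0487) that passed only narrowly. It lost the call without ChREBPβ 11 mM a, b or c (-1.14, -1.30 and -1.37), ChREBPβ 2 mM a or b (-1.31 and -0.94), GFP 11 mM a, b or c (-1.26, -1.26 and -1.27) or GFP 2 mM a or b (-1.18 and -1.23), and with the replicate letters as a block (-1.25, adjusted p = 0.0619).

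Other genes of matrix assembly and turnover were counted from 4 lists. Of 19 tested genes of collagen processing and crosslinking, 1 rose and 11 fell with ChREBPβ at 2 mM, and 2 rose and 10 fell at 11 mM, with a list median of -0.41 and -0.32. The called share was 63.2% at each level, against 44.1% of all genes tested at 2 mM and 33.4% at 11 mM. Bmp1, the protease that removes the C-terminal propeptide of fibrillar procollagens, fell from 77.3, 82.2 and 80.0 CPM to 43.4, 45.6 and 43.3 CPM at 2 mM (-0.86, SE 0.05, adjusted p = 5.8e-12) and by 0.72 (SE 0.05, adjusted p = 9.69e-11) at 11 mM. Its relative Tll1 fell by 1.23 (SE 0.06, adjusted p = 2.95e-13) and 1.02 (SE 0.05, adjusted p = 4.38e-12), and Pcolce, which speeds Bmp1, by 0.99 (SE 0.07, adjusted p = 5.16e-10) and 0.83 (SE 0.07, adjusted p = 9.37e-09). Tll2, a further protease of that kind, was under 1 CPM and was called higher at 11 mM (2.33, SE 0.57, adjusted p = 0.00201). Tgm2, a transglutaminase that crosslinks fibronectin and other proteins, was the gene that rose at both levels, from 45.5, 43.3 and 44.2 CPM to 104.2, 104.6 and 104.4 CPM at 2 mM (1.24, SE 0.05, adjusted p = 4.57e-14) and by 1.11 (SE 0.05, adjusted p = 2.49e-13) at 11 mM. Lox, the lysyl oxidase, and Serpinh1, the collagen chaperone, were at most at 0.0212 and 0.0357 CPM in a library and were not tested.

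In the list of the plasminogen system and protease regulators, 3 of 14 tested genes rose and 6 fell at 2 mM, and 4 rose and 6 fell at 11 mM. Called in total were 64.3% at 2 mM and 71.4% at 11 mM, against 44.1% and 33.4% of all genes tested. Plg, plasminogen, the zymogen of a protease that degrades fibrin and activates MMPs, was at 0.331, 0.292 and 0.288 CPM under GFP and 2.26, 1.44 and 2.02 CPM under ChREBPβ at 2 mM (2.62, SE 0.29, adjusted p = 1.7e-07), and the rise at 11 mM was 2.74 (SE 0.25, adjusted p = 1.47e-08). Plat, its tissue-type activator, rose by 0.51 (SE 0.12, adjusted p = 0.00145) and 0.75 (SE 0.10, adjusted p = 4.68e-06), and also rose with glucose under both viruses (0.75 with GFP and 0.99 with ChREBPβ). Reck, a membrane-anchored inhibitor of MMPs, fell from 12.1, 11.2 and 10.7 CPM to 5.62, 6.13 and 5.37 CPM at 2 mM (-0.98, SE 0.11, adjusted p = 2.68e-07) and by 0.87 (SE 0.11, adjusted p = 1.34e-06) at 11 mM. Plau had at most 0.0358 CPM in a library.

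Of 31 tested proteoglycans and other matrix glycoproteins, 7 rose and 13 fell at 2 mM, and 5 rose and 10 fell at 11 mM. The share called was 64.5% at 2 mM and 48.4% at 11 mM, against 44.1% and 33.4% of all genes tested. Acan encodes aggrecan, the large proteoglycan of cartilage and a substrate of several ADAMTS proteases. It was at 0.809, 0.933 and 1.12 CPM under GFP and 27.2, 28.8 and 29.7 CPM under ChREBPβ at 2 mM (4.90, SE 0.11, adjusted p = 2.98e-18), and at 3.47, 3 and 3.05 CPM and 38.4, 38.1 and 35.5 CPM at 11 mM (3.55, SE 0.08, adjusted p = 1.06e-17). Its 4 groups stood in the order seen for Col5a3, none overlapping. Fbln2, fibulin-2, rose from 0.919, 0.671 and 0.481 CPM to 6.66, 5.81 and 5.95 CPM at 2 mM (3.16, SE 0.21, adjusted p = 1.4e-10) and by 4.07 (SE 0.21, adjusted p = 3.11e-12) at 11 mM. Ltbp3, which holds latent TGF-β, was at 163, 163 and 160 CPM under GFP and 273, 285 and 278 CPM under ChREBPβ at 2 mM (0.78, SE 0.04, adjusted p = 5.09e-13) and rose by 1.19 (SE 0.04, adjusted p = 1.37e-15) at 11 mM. Gpc4, a cell surface heparan sulfate proteoglycan, fell by 1.26 (SE 0.05, adjusted p = 2.08e-14) and 1.18 (SE 0.05, adjusted p = 8.1e-14), and Matn2, matrilin-2, fell by 1.44 (SE 0.15, adjusted p = 6.02e-08) and 1.34 (SE 0.15, adjusted p = 2.42e-07).

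The TGF-β pathway, a known driver of matrix gene expression in many cells, had 3 of 13 tested genes higher and 3 lower at 2 mM, and 5 higher and 2 lower at 11 mM. Its called share was 46.2% at 2 mM and 53.8% at 11 mM, against 44.1% and 33.4% of all genes tested. The ligand Tgfb3 rose from 0.478, 0.962 and 1.09 CPM to 3.47, 3.03 and 2.65 CPM at 2 mM (1.81, SE 0.26, adjusted p = 5.27e-06) and by 1.31 (SE 0.23, adjusted p = 7.55e-05) at 11 mM. Tgfb2 fell from 2.87, 3.18 and 3.08 CPM to 1.29, 1.497 and 1.63 CPM at 2 mM (-1.03, SE 0.20, adjusted p = 0.000166) and by 1.21 (SE 0.18, adjusted p = 1.05e-05) at 11 mM. Tgfb1 was at 1.43 to 1.99 CPM under GFP and 1.41 to 2.04 CPM under ChREBPβ at 2 mM without a call, and rose at 11 mM from 0.642, 0.911 and 1.02 CPM to 1.94, 1.72 and 2.09 CPM (1.16, SE 0.22, adjusted p = 0.000176). Thbs1, a secreted activator of latent TGF-β, was at 0.177 to 0.529 CPM over all libraries and was called in no comparison.

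**Figure D4:**
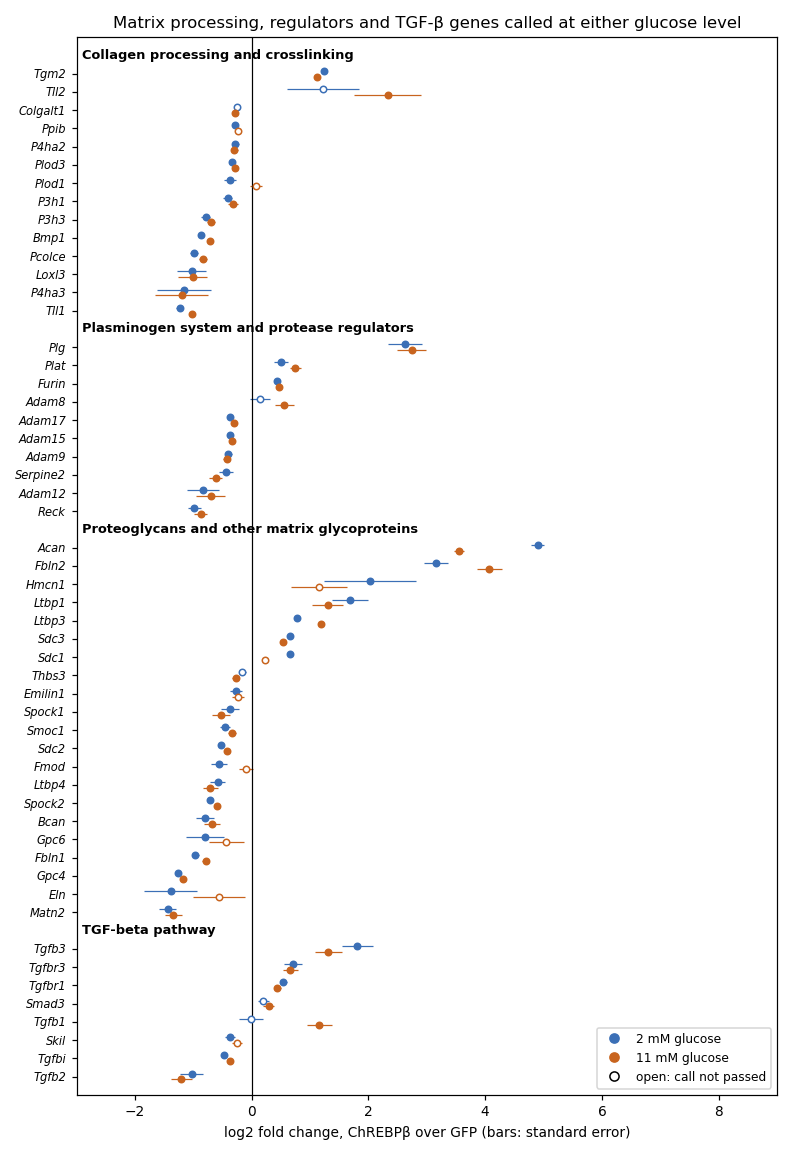
Log2 fold change with ChREBPβ over GFP, on the x axis, of the genes of the 4 lists that were called at 2 mM (blue) or 11 mM (orange) glucose; bars are the standard error of the edgeR fit from 3 libraries a group, and open points did not pass the call. Most genes of collagen processing lie left of 0, while Acan and Fbln2 lie at 3.16 or above at both levels.

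Sequence around the annotated start was at hand in RefSeq (GRCr8 build) for 41 of the 57 members, 250 bases before to 50 after it. ChREBP binds carbohydrate response elements, pairs of E-boxes spaced by a few bases, so these windows were searched on both strands for the E-box CACGTG, for the paired form (CACGNG, 5 unspecified bases, then CNCGTG), which can overlap it, for the AP-1 motif TGANTCA and for the TATA motif TATAAA. The E-box was found in 1 of the 41 members, Adamts17, and in 6.42% of all 33469 promoter windows. The paired form was in none of the 41 and in 0.0329% of all windows, TGANTCA in none of the 41 and in 7.33%, and TATAAA in 4 of the 41 (Adamts7, Adamts10, Adamtsl2 and Postn) and in 14.2%. These counts describe letters in the windows and no factor's binding. The paired form is so rare among all windows that its absence from 41 says nothing about the members. Tnxb, Adamts8 and Mmp17, which were among the largest rises, had no window and were not searched. The windows shown, 5′ to 3′, are those of Lamc3, the member with the largest fitted rise that has one, and of Col24a1, the member with the largest fall. The windows of Col5a3 for its interaction, of Adamtsl2 for its TATA motif and of Adamts17 for its E-box were chosen after the values were seen. Capitals mark a match to one of the motifs, and the windows of Lamc3, Col5a3 and Col24a1 hold none. They lie at chr3:35562739-35563038 (Lamc3, plus strand), chr8:27625899-27626198 (Col5a3, minus strand), chr3:30802450-30802749 (Adamtsl2, plus strand), chr2:236872384-236872683 (Col24a1, plus strand) and chr1:129855812-129856111 (Adamts17, plus strand).
Lamc3: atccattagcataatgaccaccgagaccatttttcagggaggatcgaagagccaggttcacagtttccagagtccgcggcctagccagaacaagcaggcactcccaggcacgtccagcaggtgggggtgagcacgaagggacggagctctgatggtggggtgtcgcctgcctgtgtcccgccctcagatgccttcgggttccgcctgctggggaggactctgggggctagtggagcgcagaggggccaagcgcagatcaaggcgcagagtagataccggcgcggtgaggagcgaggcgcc
Col5a3: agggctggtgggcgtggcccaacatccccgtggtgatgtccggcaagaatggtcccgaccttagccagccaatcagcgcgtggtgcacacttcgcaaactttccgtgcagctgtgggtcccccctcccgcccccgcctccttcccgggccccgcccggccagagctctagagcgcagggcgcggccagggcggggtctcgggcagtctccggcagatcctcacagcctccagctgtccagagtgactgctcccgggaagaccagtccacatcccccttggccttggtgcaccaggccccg
Adamtsl2: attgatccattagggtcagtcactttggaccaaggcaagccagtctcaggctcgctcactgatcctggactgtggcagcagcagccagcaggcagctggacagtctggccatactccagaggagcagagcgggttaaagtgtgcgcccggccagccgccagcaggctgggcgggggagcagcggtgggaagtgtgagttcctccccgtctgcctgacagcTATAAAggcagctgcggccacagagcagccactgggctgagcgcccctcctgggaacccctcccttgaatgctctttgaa
Col24a1: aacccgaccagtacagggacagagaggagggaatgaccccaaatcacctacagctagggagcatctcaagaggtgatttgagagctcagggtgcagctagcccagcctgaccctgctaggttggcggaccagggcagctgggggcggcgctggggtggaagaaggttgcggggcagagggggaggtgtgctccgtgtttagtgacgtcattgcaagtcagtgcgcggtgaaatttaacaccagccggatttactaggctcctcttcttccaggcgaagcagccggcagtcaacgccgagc
Adamts17: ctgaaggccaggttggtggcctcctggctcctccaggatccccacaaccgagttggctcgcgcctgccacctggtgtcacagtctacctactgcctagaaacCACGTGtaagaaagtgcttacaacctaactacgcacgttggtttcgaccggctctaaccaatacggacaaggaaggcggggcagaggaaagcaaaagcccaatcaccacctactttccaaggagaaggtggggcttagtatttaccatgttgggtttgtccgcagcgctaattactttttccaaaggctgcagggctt
The TATA motif of Adamtsl2 begins 30 bases before the annotated start. The E-box of Adamts17 begins 148 bases before its start. Adamts17 itself fell at 2 mM (-0.47) and was not called at 11 mM.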

How the data were processed

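RNA of 12 libraries of INS-1 832/13 cells, 3 in each of 4 groups taken from the labels, was amplified (NuGEN Ovation V2) and sequenced by a service provider, and the authors deposited raw read counts per gene; per the labels, their processing notes name the Rnor_6.0 build and edgeR, and the aligner and counter are not given in the sources used here. The deposited group means of these counts, taken here as a signal, equalled the mean of the 3 columns in all 28728 rows and were used for that check alone. One row without a name, 0.0043% to 0.00601% of a library, was left out, and 26 names turned into dates were kept.

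The counts were fitted with edgeR 4.0.16 in R 4.3.3 (limma 3.58.1), by the quasi-likelihood test on all 12 libraries in 1 fit with group as the factor, TMM factors (0.9581 to 1.057) and filterByExpr, which left 14669 genes; SE is the log2 fold change over the root of F. P-values were Benjamini-Hochberg adjusted over all of them, and the steps were tested on simulated data. Replicate pairs of a group differed by 3.06 to 16.6 times the sampling variance, more than the same library sequenced again would. This does not show that they came from separate cultures. Precision rests on 25754488 to 60531215 counts a library, and counts of amplified RNA are not independent molecules. Names, promoter windows and overlapping genes came from RefSeq tables (GRCr8, 56 of 57 members matched, all but Tnxb).

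The members and lists were chosen with earlier results of these data known. Named with values were the 12 largest increases and 8 largest decreases among called members with a mean of at least 1 CPM, the 6 largest called interactions, the 3 members of each role with the most reads and the TIMPs. Of each list the 2 called genes with the largest change were named, with Lox, Serpinh1, Plat, Plau, Tgfb1 and Thbs1. All other genes given with values, such as Adamts5, Col24a1, Col8a2, Lamb2 and, in the lists, Bmp1 and Ltbp3, were chosen after their values were seen. Alternatives were DESeq2 1.42.0, other scalings, filters and minimum changes, a block for the replicate letters, leaving out each library, and, added after seeing the data, thinning each library to 25754488 counts.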

Additional observations from a re-analysis of the deposited data

Results flagged for a closer look

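A difference in the effect of ChREBPβ at 11 and at 2 mM was found by edgeR's interaction test for 7 of the 57 members (12.3%) and for 4 of the 77 tested genes of the other matrix lists (5.19%), where it was called for 6.31% of all genes tested. The values are the log2 fold change at 11 mM minus that at 2 mM. Among the members they were -3.39 for Col5a3, -2.87 for Lamc3, -1.38 for Mmp17, -1.26 for Fbn1, 1.01 for Col4a4, 0.80 for Col6a6 and 0.51 for Col27a1. Among the other matrix genes they were -1.34 for Acan (SE 0.16, adjusted p = 1.47e-05), 0.41 for Ltbp3 (SE 0.05, adjusted p = 3.44e-05), -0.41 for Sdc1, the syndecan-1 proteoglycan (SE 0.07, adjusted p = 0.000802), and 1.17 for Tgfb1 (SE 0.31, adjusted p = 0.0225). Tgfb1 lost the call without ChREBPβ 11 mM c (1.10), ChREBPβ 2 mM b (1.02), GFP 11 mM a (0.99) or GFP 2 mM c (1.05), and after thinning (0.92). The calls of Lamc3, Col27a1 and Fbn1 also depended on single libraries, as given with their values above.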

How the results depend on the processing

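A minimum change of 2-fold in place of 1.2-fold moved the number of members called to 17 at 2 mM, 13 at 11 mM, 6 for glucose with GFP and 0 for glucose with ChREBPβ. Leaving out each library in turn gave 30 to 34 members called at 2 mM, 26 to 32 at 11 mM, 11 to 16 for glucose with GFP, 3 to 5 for glucose with ChREBPβ and 5 to 7 for the interaction. The other scalings and filters, DESeq2 and thinning kept these counts within 1.5 times, and no called effect changed sign under any of them. Apart from the 2-fold minimum, which took away more calls and was not followed gene by gene, 22 of 90 called member effects lost the call under at least 1 setting. Of these 22, 21 lost it when a single library was left out. Members that a stricter count filter removed from the test are not among the 22. The cause was not tested. Same-letter libraries of different groups had correlations of deviations between -0.114 and 0.0644, so no effect shared by a letter was seen. That does not exclude that libraries of a letter came from the same experiment. With a replicate block, 32, 31, 15, 4 and 6 members were called in the same order of comparisons. The other lists gave 91 calls over the ChREBPβ comparisons at 2 and 11 mM, as in the main fit. A gene called at both levels counts at each. Depth limits the members under 1 CPM and the 58 genes below the count minimum.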

Other observations

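Of the matching genes below the count minimum, which were not tested, Lama4, the laminin α4 chain, had 0 counts in all 6 GFP libraries, 2, 14 and 0 with ChREBPβ at 2 mM and 13, 6 and 3 with ChREBPβ at 11 mM. Mmp14, a membrane-type protease, had 2, 2 and 5 counts (GFP) and 2, 2 and 8 (ChREBPβ) at 2 mM, and 1 count in each GFP library and 6, 8 and 8 with ChREBPβ at 11 mM. Both genes were chosen after their counts were seen. Other genes below the minimum did not rise, such as Col4a1, with 2 to 15 counts in a GFP library and 1 to 6 in a ChREBPβ library. These are raw counts, and the libraries differ in depth: totals were 25754488 to 46654823 with GFP and 28595982 to 60531215 with ChREBPβ.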
